A study of Homo sapiens with 22 samples.

Results

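The 8 genes described here encode caspases and the nuclear factors that act after them: *CASP2*, *CASP8*, *CASP9*, *CASP10*, *CASP6*, *DFFA*, *DFFB* and *ACIN1*. They were chosen by symbol, and all 8 were found among the 59087 gene names of each of 2 tables of raw RNA-Seq counts. The cells are HUDEP-2, an immortalized human erythroid progenitor line, which proliferates in expansion medium (D0) and matures after a change of medium, here until D6. Sequencing covered D0 and D6 of 2 WT and 3 H2A.X KO replicates in one experiment (the H2A.X experiment), and of 3 WT and 3 BAZ1B KO replicates in another (the BAZ1B experiment), which makes 22 libraries. H2A.X is a histone variant that is phosphorylated at DNA breaks, and BAZ1B is the kinase of a tyrosine of H2A.X. KO lines were grown from single cells after lentiviral Cas9 editing with a pair of guides, so each is 1 clone, and the selected deletions were homozygous. The guides flank the coding sequence in H2A.X KO and the first exon in BAZ1B KO. Every group was kept with SCF, erythropoietin and doxycycline. D0 cultures also received dexamethasone, whereas the maturation medium had none and added plasma, heparin, holo-transferrin and insulin. The paper speaks of WT subclones handled like the KO lines. The labels do not tie a WT replicate to a subclone, and the p values measure the spread between these libraries.

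Caspases are proteases that are made as inactive precursors. The initiators are activated on large assemblies: caspase-8 and caspase-10 at death receptors, caspase-9 on the apoptosome that forms when mitochondria release cytochrome c, and caspase-2 on the PIDDosome. They cleave the executioners, which cut nuclear and cytoplasmic proteins. In the nucleus, cleavage of the inhibitor ICAD (the product of *DFFA*) frees the nuclease CAD (*DFFB*), and cleaved Acinus (*ACIN1*) condenses chromatin without cutting DNA. Developing erythroblasts use caspase activity without dying while their chromatin condenses, and the study asked whether H2A.X and its kinase take part in that condensation. RNA levels bear on the supply of these proteins and not on their activation, which is by cleavage.

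In GRCh38, *CASP8* (chr2:201233443-201361836) and *CASP10* (chr2:201182872-201229428) are neighbours on the plus strand. *CASP2* lies at chr7:143288215-143307696 on the plus strand and *CASP9* at chr1:15490832-15526534 on the minus strand. *CASP6*, the executioner that cleaves lamin A, lies at chr4:109688622-109703583 on the minus strand. *DFFA* (chr1:10456522-10472529, minus strand) and *DFFB* (chr1:3857267-3885429, plus strand) share a chromosome arm, and *ACIN1* lies at chr14:23058564-23095614 on the minus strand. The largest share of a gene's annotated exons that another gene also covers was 7.05%, for *DFFA* and an antisense RNA, followed by 5.04% for *CASP6* and *MCUB*. Whether the counting used strand is not given in the sources used here, so reads from these stretches cannot be told apart.

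RefSeq promoter windows of GRCh38.p14, each of 300 bases ending 50 bases after an annotated start, were found for 6 of the 8 genes, and none for *CASP10* and *DFFB*. Of the windows nearest to each gene's start, those of *CASP8*, *CASP6* and *DFFA* are shown because, of the 6 genes, these fell most from D0 to D6 in BAZ1B WT cells. Capitals mark AGATAA, a form of the letters that GATA factors recognize, searched on both strands. Other forms were not searched, such as the tgataa that the *CASP8* window also holds in lower case.
CASP8, chr2:201233213-201233512, plus strand: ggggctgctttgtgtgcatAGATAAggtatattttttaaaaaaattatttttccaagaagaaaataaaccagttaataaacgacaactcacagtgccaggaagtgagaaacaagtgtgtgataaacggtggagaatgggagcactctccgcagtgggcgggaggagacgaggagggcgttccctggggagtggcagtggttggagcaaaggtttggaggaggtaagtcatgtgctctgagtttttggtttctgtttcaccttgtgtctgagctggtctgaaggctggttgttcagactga
CASP6, chr4:109703396-109703695, minus strand: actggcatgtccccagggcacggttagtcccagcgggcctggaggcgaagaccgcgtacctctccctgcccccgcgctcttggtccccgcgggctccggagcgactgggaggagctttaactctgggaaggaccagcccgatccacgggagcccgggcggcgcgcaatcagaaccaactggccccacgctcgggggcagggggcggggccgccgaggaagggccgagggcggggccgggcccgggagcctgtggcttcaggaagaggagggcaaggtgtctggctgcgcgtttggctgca
DFFA, chr1:10472480-10472779, minus strand: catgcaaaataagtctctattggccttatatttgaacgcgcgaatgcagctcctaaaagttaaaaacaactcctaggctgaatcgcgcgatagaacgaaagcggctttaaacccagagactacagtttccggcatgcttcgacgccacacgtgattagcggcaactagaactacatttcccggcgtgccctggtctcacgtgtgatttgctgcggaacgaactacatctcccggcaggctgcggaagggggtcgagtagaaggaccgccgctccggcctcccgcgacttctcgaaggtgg
AGATAA occurred once in the *CASP8* window, starting 231 bases before the annotated start, and in none of the other 5 windows, while 10.3% of all 35116 windows hold it. TTTGGCGC or TTTCCCGC, forms of the letters that E2F factors recognize, occurred in none of the 6 on either strand, against 2.27% of all windows. The windows differ in GC content, from 46.3% in *CASP8* and 53.7% in *DFFA* to 72.0% in *CASP6*. A match or its absence describes these letters only.

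Library totals were 11910141 to 21013004 counts in the H2A.X experiment and 33199408 to 41273244 in the BAZ1B experiment. Over the 8 genes, counts per library reached from 49 (*CASP9*) to 5648 (*ACIN1*) in the first and from 181 to 12955 in the second. Reads carry no molecular identifiers, so these are counts of reads and not of molecules. Levels are given as CPM, a gene's count scaled to a fixed library total, after TMM normalization. Of the 10 erythroid markers, 8 to 10 were above 1 CPM in each group. Of the markers of other lineages, *PF4*, *PPBP*, *GP9*, *CLC*, *CD14*, *CSF1R*, *CD3E* and *CD79A* were under 1 CPM on average in every group, but *ITGA2B* and *TPSAB1* were above it in all groups. At D0, 4 of the 6 mast cell and eosinophil markers passed 1 CPM in some library of BAZ1B WT and of H2A.X KO, and 5 in BAZ1B KO. In the same groups 1 of 3 monocyte and macrophage markers did, and these summed to 4.36 to 6.3 CPM in BAZ1B WT. The 6 mast cell and eosinophil markers summed to 196 to 219 CPM in BAZ1B WT at D0 and 11.4 to 15.4 CPM at D6, and at D0 to 33.5 to 41.1 CPM in H2A.X WT and 103 to 199.7 CPM in H2A.X KO. The part of such markers in the results was not tested, and in bulk RNA fewer cells of a type and less RNA per cell cannot be told apart. Summed erythroid markers at D0 were 21927 to 29661 CPM in H2A.X WT and 11810.1 to 15448 CPM in H2A.X KO, so these groups also differed in maturation genes before the change of medium. The targeted gene *H2AX*, listed as *H2AFX*, was at 89.7 and 112 CPM in H2A.X WT at D0 and at 19.0, 44.8 and 43.3 CPM in KO. *BAZ1B* was at 258 to 264 CPM in its WT and 174 to 222 CPM in its KO at D0, so RNA from both edited genes was still counted.

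To set the genes side by side, CPM were divided by the length of the canonical transcript in kb. In BAZ1B WT at D0, the order from high to low was *ACIN1* at 66.6 ± 0.869 CPM per kb (SD, n = 3), *CASP6* at 25.2 ± 0.551, *DFFA* at 19.2 ± 0.18, *CASP2* at 16 ± 0.453, *DFFB* at 13 ± 0.37, *CASP8* at 10.9 ± 0.607, *CASP10* at 3.84 ± 0.0159 and *CASP9* at 2.68 ± 0.0888. No 2 neighbours in that order overlapped between libraries. *ACIN1* came first in all 8 groups of genotype and day, and *CASP9*, the apoptosome's caspase, came last in all 8 by mean level. In both H2A.X genotypes at D6 its libraries overlapped those of the next gene, *DFFB* in KO and *CASP10* in WT. At D6 in BAZ1B WT, *DFFA* had gone behind *CASP2* and *DFFB* behind *CASP8*, and *CASP6* (14.6 ± 1.34 CPM per kb) overlapped *CASP2* (13.8 ± 0.0556). In H2A.X WT at D0, *CASP2*, *DFFB* and *DFFA* followed each other at 10.7 ± 0.735, 10.5 ± 1.13 and 9.76 ± 0.671 CPM per kb (n = 2) and overlapped. The tables were normalized apart, so levels are not compared across them.

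**Figure D1:**
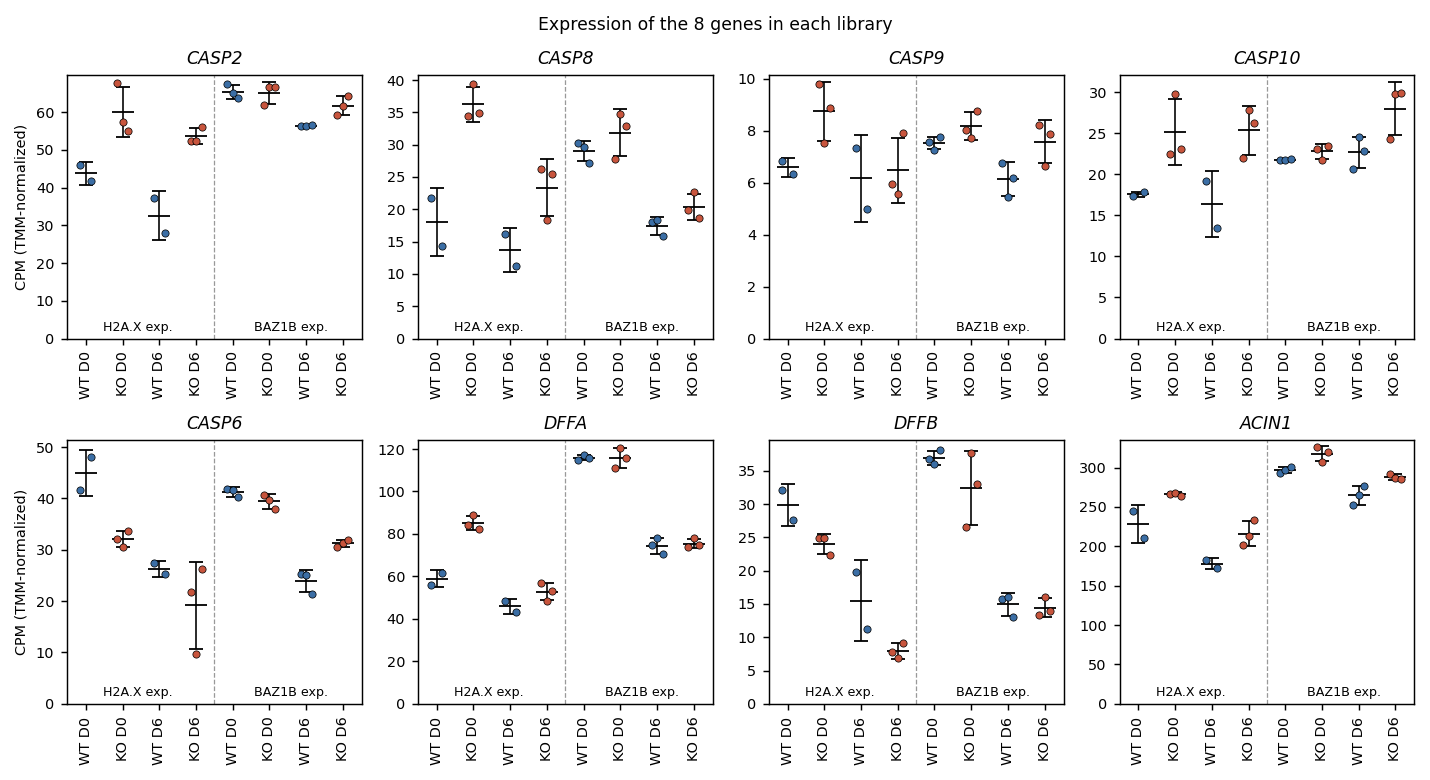
Level of each gene (y axis, CPM after TMM normalization, from 0) in each library, by genotype and day (x axis), with the H2A.X experiment left of the dashed line and the BAZ1B experiment right of it; points are libraries (blue WT, red KO), and bars show the mean and SD. *DFFB* fell from 36.0 to 38.1 CPM at D0 to 13.0 to 16.1 CPM at D6 in BAZ1B WT, while *CASP10* stayed between 20.7 and 24.5 CPM.

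The first comparison asked how these genes change as the cells mature. In the BAZ1B experiment, WT cells lost RNA of 7 of the 8 genes from D0 to D6 by edgeR's quasi-likelihood test (Benjamini-Hochberg adjusted p below 0.05 over 13879 genes), and none rose. Of all genes tested, 35.4% fell and 33.5% rose in the same comparison. The median log2 fold change was -0.47 over the 8 genes and -0.02 over all genes.

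The nuclease fell most. *DFFB* was at 36.8, 36.0 and 38.1 CPM in the WT libraries at D0 and at 15.8, 16.1 and 13.0 CPM at D6, which is 2.47-fold lower (log2 fold change -1.30 ± 0.12 (SE), adjusted p = 6.01e-07). Its inhibitor *DFFA* was at 115, 117 and 116 CPM and then at 75.0, 78.0 and 70.4 CPM, 1.56-fold lower (-0.64 ± 0.0437, adjusted p = 3.39e-08). Neither gene's D0 and D6 libraries overlapped. In BAZ1B KO, *DFFB* went from 26.6, 37.7 and 33.0 CPM to 13.4, 16.1 and 13.9 CPM (-1.17 ± 0.121, adjusted p = 1.91e-06), and *DFFA* from 111, 120.3 and 116 CPM to 73.8, 78.0 and 74.7 CPM (-0.62 ± 0.0437, adjusted p = 4.73e-08).

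Inhibitor and nuclease therefore changed in their ratio. The ratio of *DFFA* to *DFFB*, both per kb and within a library, was 1.48 ± 0.0462 at D0 and 2.35 ± 0.166 at D6 in BAZ1B WT (n = 3 each). In BAZ1B KO it was 1.71 ± 0.24 and 2.46 ± 0.17. In H2A.X KO it was 1.67 ± 0.0739 and 3.15 ± 0.374 (n = 3 each), and in H2A.X WT 0.935 ± 0.164 and 1.48 ± 0.471 (n = 2 each). The D0 and D6 libraries did not overlap within any of these 4 genotypes. The ratio is given as a description, with no test.

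*CASP6* fell in both BAZ1B genotypes, by different amounts. In WT it was at 41.9, 41.6 and 40.2 CPM at D0 and at 25.2, 25.1 and 21.4 CPM at D6 (log2 fold change -0.79 ± 0.0621, adjusted p = 1.33e-07). In KO it was at 40.7, 39.7 and 37.9 CPM and then at 30.6, 31.3 and 31.9 CPM (-0.33 ± 0.0614, adjusted p = 0.000329). The ranges of WT and KO overlapped at D0, whereas at D6 the 3 KO libraries lay above the 3 WT libraries.

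Of the initiators that act at death receptors, *CASP8* fell and *CASP10* did not. *CASP8* was at 30.2, 29.6 and 27.2 CPM in BAZ1B WT at D0 and at 18.1, 18.3 and 15.8 CPM at D6 (-0.74 ± 0.097, adjusted p = 1.71e-05). *CASP10* was at 21.7, 21.7 and 21.9 CPM and then at 20.7, 24.5 and 22.8 CPM (0.06 ± 0.0841, adjusted p = 0.553). In BAZ1B KO, *CASP8* fell by 0.64 ± 0.0962 on the log2 scale (adjusted p = 5.75e-05), and *CASP10* rose from 23.1, 21.8 and 23.5 CPM to 24.3, 29.8 and 29.9 CPM (0.29 ± 0.0837, adjusted p = 0.00713). The ratio of *CASP8* to *CASP10* per kb was 2.84 ± 0.169 at D0 and 1.64 ± 0.199 at D6 in WT, and 2.98 ± 0.418 and 1.57 ± 0.212 in KO, with no overlap between days in either. In the H2A.X experiment it was 3.1 ± 0.244 and 2.01 ± 0.573 in KO, again with no overlap, and 2.2 ± 0.696 and 1.78 ± 0.00407 in WT (n = 2 each), where the days overlapped.

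**Figure D2:**
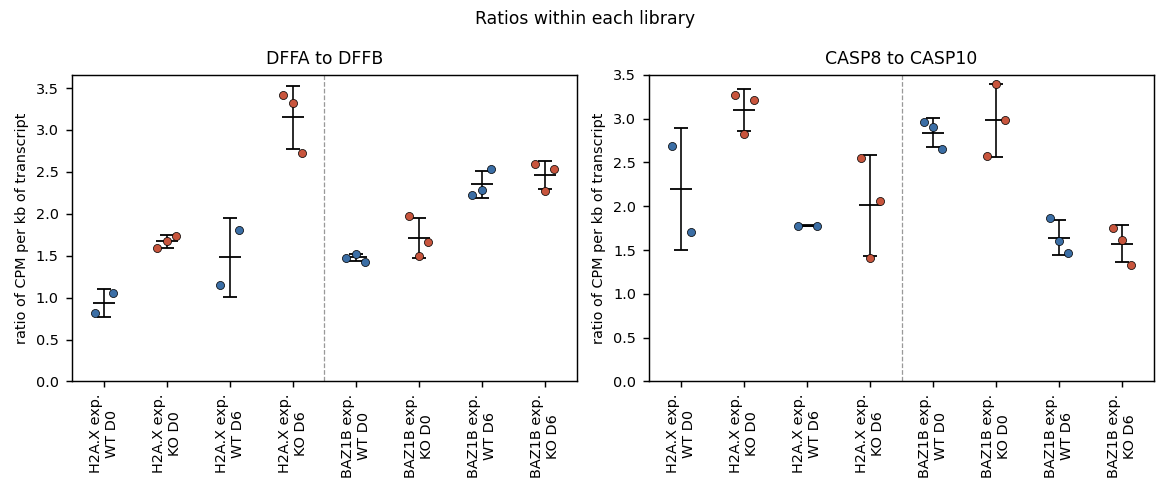
Ratio of *DFFA* to *DFFB* (left) and of *CASP8* to *CASP10* (right), each as CPM per kb of transcript within a library (y axis, from 0), by genotype and day (x axis); points are libraries (blue WT, red KO), and bars show the mean and SD. The ratio of inhibitor to nuclease was higher at D6 than at D0 in all 4 genotypes, for example 2.35 against 1.48 in BAZ1B WT.

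The other 3 genes changed less. *CASP2* fell by 0.21 ± 0.0443 on the log2 scale in BAZ1B WT (adjusted p = 0.00081), from 63.7 to 67.4 CPM at D0 to 56.2 to 56.6 CPM at D6. *CASP9* fell by 0.29 ± 0.112 (adjusted p = 0.0323), from 7.27 to 7.76 CPM to 5.45 to 6.77 CPM, and *ACIN1* by 0.17 ± 0.0392 (adjusted p = 0.0022), from 293 to 301 CPM to 253 to 277 CPM. In BAZ1B KO, 5 of the 8 genes fell and 1 rose, beside 34.5% and 33.2% of all genes. *ACIN1* fell by 0.14 ± 0.0392 (adjusted p = 0.00642), whereas *CASP2* (-0.08 ± 0.0443, adjusted p = 0.145) and *CASP9* (-0.11 ± 0.111, adjusted p = 0.403) did not pass the test. The call for *CASP9* in WT was lost without any 1 of 5 WT libraries (D0 replicates 1 to 3 and D6 replicates 2 and 3), with adjusted p values of 0.0502 to 0.148 and a log2 fold change down to -0.21 without D6 replicate 2.

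The H2A.X experiment gave fewer calls for the same change of medium. In H2A.X KO, *DFFB* fell from 24.9, 24.9 and 22.3 CPM at D0 to 7.79, 6.87 and 9.18 CPM at D6 (log2 fold change -1.59 ± 0.218, adjusted p = 0.000698). *DFFA* fell from 84.3, 88.9 and 82.5 CPM to 56.7, 48.5 and 53.2 CPM (-0.69 ± 0.123, adjusted p = 0.00249), and *CASP8* from 34.5, 39.4 and 34.9 CPM to 26.3, 18.3 and 25.4 CPM (-0.63 ± 0.212, adjusted p = 0.0441). These 3 of the 8 genes fell and none rose, beside 16.1% and 14.8% of the 13236 genes tested. The *DFFB* change was the sole change of these 8 genes, over all comparisons, that had an adjusted p below 0.001 together with an absolute log2 fold change above 1.5. The *CASP8* call was lost without any 1 of 5 KO libraries, with adjusted p values of 0.0503 (D6 replicate 3), 0.0851, 0.138 and 0.0971 (D0 replicates 1, 2 and 3) and 0.141 (D6 replicate 2).

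*CASP6* in H2A.X KO was at 32.0, 30.5 and 33.6 CPM at D0 and at 21.7, 9.79 and 26.2 CPM at D6, with replicate 2 far under the others, and its change missed the test (-0.74 ± 0.284, adjusted p = 0.0739). With a term that pairs the D0 and D6 libraries of each KO clone, it passed (-0.83, adjusted p = 0.0226). Without D6 replicate 2 the log2 fold change was -0.42 (adjusted p = 0.0811), and without D6 replicate 3 it was -1.0 and passed (adjusted p = 0.0211). DESeq2 called it as well (-0.73, adjusted p = 0.0463). *ACIN1* (-0.30 ± 0.117, adjusted p = 0.0724), *CASP9* (-0.43 ± 0.233, adjusted p = 0.189), *CASP2* (-0.16 ± 0.146, adjusted p = 0.435) and *CASP10* (0.01 ± 0.181, adjusted p = 0.965) did not pass.

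In H2A.X WT, with 2 libraries at each day, 0 of the 8 genes passed edgeR's test, 4 had an unadjusted p below 0.05, and DESeq2 called 1. Few genes were called there by edgeR at all, 1.16% of those tested as lower and 0.839% as higher. The shares of all genes at an unadjusted p below 0.05 or called by DESeq2 were not counted. All 8 log2 fold changes were negative, from -0.94 ± 0.262 for *DFFB* (adjusted p = 0.0928) to -0.09 ± 0.291 for *CASP9*. Their median was -0.38, against 0.01 over all genes. With a term that pairs the same-numbered D0 and D6 libraries, *DFFB* passed, as given with the processing below. *DFFB* was at 32.1 and 27.6 CPM at D0 and at 19.8 and 11.2 CPM at D6. Its change was -1.43 without WT D6 replicate 1 (adjusted p = 0.0444, which passes) and -0.61 without WT D6 replicate 2 (adjusted p = 0.523). *CASP6* (-0.77 ± 0.348, adjusted p = 0.24) was at 41.7 and 48.1 CPM and then at 27.4 and 25.2 CPM, and passed without KO D6 replicate 2 (adjusted p = 0.0423), which enters the estimate of the spread.

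**Figure D3:**
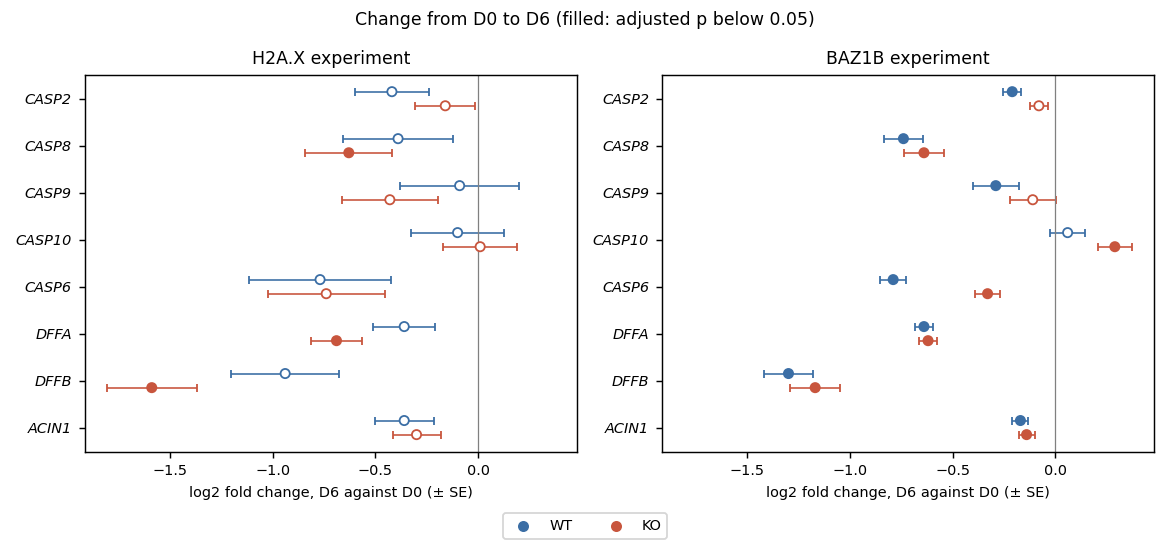
Log2 fold change of D6 against D0 (x axis, bars show the SE) for each gene (y axis) in WT (blue) and KO (red) of the H2A.X (left) and BAZ1B (right) experiments; filled points have an adjusted p below 0.05. *DFFB* has the most negative value in all 4 genotypes, from -0.94 in H2A.X WT to -1.59 in H2A.X KO.

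The second comparison asked what loss of H2A.X does to these genes at each day. At D0, 2 of the 8 genes were higher in H2A.X KO than in WT and none was lower, beside 18.4% and 16.7% of all genes tested. *CASP8* was at 34.5, 39.4 and 34.9 CPM in KO and at 21.8 and 14.3 CPM in WT, 2-fold higher (log2 fold change 1.0 ± 0.244, adjusted p = 0.0135). *DFFA* was at 84.3, 88.9 and 82.5 CPM in KO and at 56.1 and 61.8 CPM in WT (0.53 ± 0.138, adjusted p = 0.0169). *CASP2* (0.45 ± 0.166, adjusted p = 0.0554), *CASP10* (0.52 ± 0.207, adjusted p = 0.0754), *CASP9* (0.41 ± 0.263, adjusted p = 0.244), *ACIN1* (0.23 ± 0.131, adjusted p = 0.198), *CASP6* (-0.49 ± 0.311, adjusted p = 0.24) and *DFFB* (-0.31 ± 0.233, adjusted p = 0.309) did not pass the test.

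At D6, 3 of the 8 genes were higher in H2A.X KO and 1 was lower, beside 22.2% and 20.9% of all genes. *CASP2*, the caspase of the PIDDosome, was at 52.4, 52.3 and 56.1 CPM in KO and at 37.1 and 27.9 CPM in WT (0.72 ± 0.169, adjusted p = 0.00854). *CASP8* was at 26.3, 18.3 and 25.4 CPM against 16.1 and 11.3 CPM (0.76 ± 0.247, adjusted p = 0.0302), and its neighbour *CASP10* at 22.0, 27.8 and 26.2 CPM against 19.2 and 13.5 CPM (0.63 ± 0.209, adjusted p = 0.0347). *DFFB* was lower, at 7.79, 6.87 and 9.18 CPM in KO against 19.8 and 11.2 CPM in WT (-0.97 ± 0.24, adjusted p = 0.0103). *DFFA* (0.20 ± 0.138, adjusted p = 0.257), *ACIN1* (0.28 ± 0.132, adjusted p = 0.109), *CASP6* (-0.45 ± 0.317, adjusted p = 0.266) and *CASP9* (0.06 ± 0.266, adjusted p = 0.863) did not pass.

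Across all genes, the H2A.X KO differences moved with transcript length. Over the 12017 genes with a length, the log2 fold change of H2A.X KO against WT rose with the length of the canonical transcript, with a Spearman rho of 0.544 at D0 and 0.601 at D6, across genes that share the same libraries. Over 12408 genes of the BAZ1B experiment rho was -0.0301 and 0.0524. The transcripts of *DFFA* (6035 bases), *CASP10* (5668), *ACIN1* (4460) and *CASP2* (4089) are the long ones here, and those of *DFFB* (2833), *CASP9* (2808), *CASP8* (2659) and *CASP6* (1634) the short ones. Headers of 5 of the 6 H2A.X KO columns carry the word Redo and none of the WT columns does. So genotype and that mark cannot be told apart at D0.

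With each library corrected for length and GC content, *CASP8* at D0 (1.06, adjusted p = 0.0165) and *DFFB* at D6 (-0.93, adjusted p = 0.0194) were the calls left. *DFFA* went to 0.02 at D0 (adjusted p = 0.94) and to -0.43 at D6 (adjusted p = 0.0552), a change of sign. *CASP10* went to 0.03 at both days, and *CASP2* to 0.39 (adjusted p = 0.068) and *CASP8* to 0.69 (adjusted p = 0.0667) at D6. With the 1 KO library at D6 that lacks the mark set against both WT libraries, an alternative chosen after seeing the data in which the lone library is taken to vary like the others, the log2 fold change was 0.79 for *CASP2* (adjusted p = 0.0617), 0.89 for *CASP8* (0.0785), 0.68 for *CASP10* (0.106) and -0.77 for *DFFB* (0.13), so all 4 kept their sign and none passed.

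Each of these calls was also lost with some single library left out. Leaving out a WT library leaves 1 in its group and weakens the test, so a lost call does not show that this library made the difference. For *DFFA* at D0 the log2 fold change was 0.53 as fitted, 0.47 without WT D0 replicate 1 and 0.60 without WT D0 replicate 2. Without WT D0 replicate 2, *CASP8* at D0 went to 0.73 (adjusted p = 0.155), and *DFFA* lost its call without WT D0 replicate 1 (0.0705), WT D0 replicate 2 (0.102) or KO D0 replicate 2 (0.0571). At D6, leaving out WT D6 replicate 2 ended the calls of *CASP2* (0.56, adjusted p = 0.087), *CASP8* (0.57, 0.21) and *CASP10* (0.43, 0.242), and leaving out WT D6 replicate 1 that of *DFFB* (-0.47, adjusted p = 0.149). *CASP8* also lost it without KO D6 replicate 1 (0.0773), and *CASP10* without KO D0 replicate 3 (0.0553) or KO D6 replicate 2 (0.0822).

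**Figure D4:**
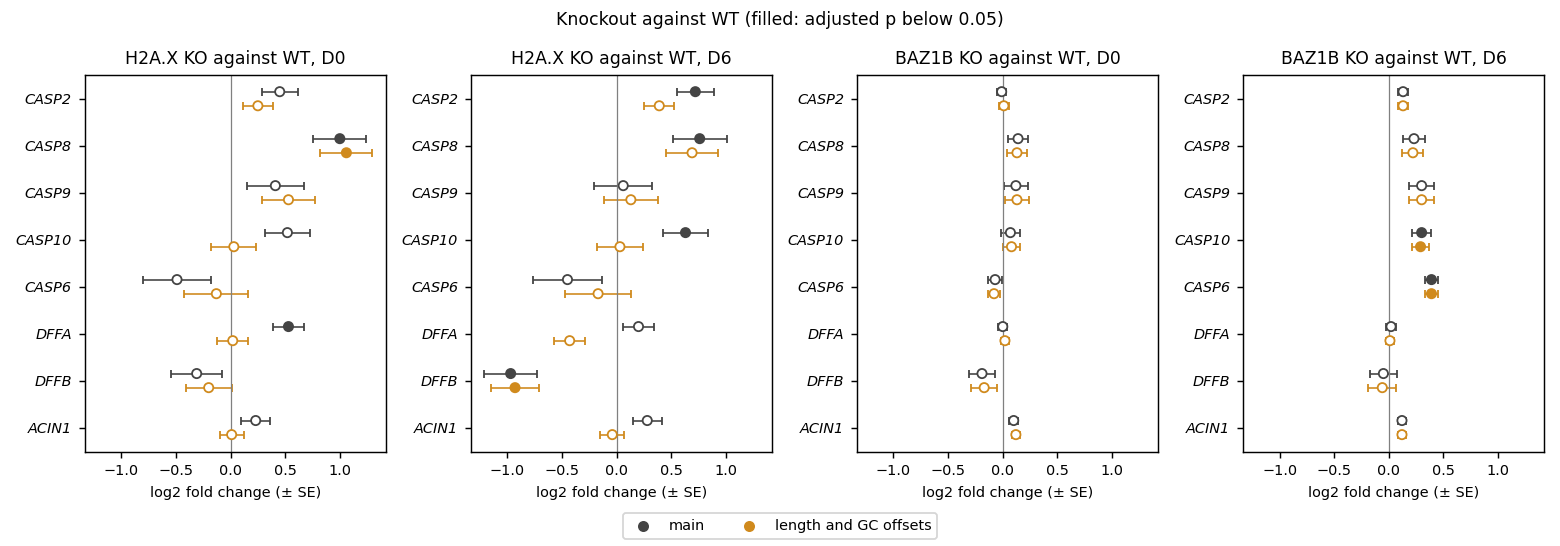
Log2 fold change of KO against WT (x axis, bars show the SE) for each gene (y axis) in both experiments at D0 and D6, as fitted (grey) and with each library corrected for transcript length and GC content (orange); filled points have an adjusted p below 0.05. In the H2A.X experiment *CASP10* moved from 0.63 to 0.03 at D6 under the correction and *CASP8* at D0 from 1.0 to 1.06, while the BAZ1B experiment shows little difference between orange and grey.

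Whether the H2A.X KO effect differed between days was tested directly, by taking the D0 effect from the D6 effect. With edgeR 0 of the 8 genes passed, with 0 at an unadjusted p below 0.05 and 0 by DESeq2, beside 1.04% of all genes called lower and 0.302% called higher. *DFFB* had the lowest value (-0.66 ± 0.337, adjusted p = 0.397), so its call at D6 and the lack of one at D0 are not shown to differ.

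The third comparison asked the same of BAZ1B. At D0, 0 of the 8 genes differed between BAZ1B KO and WT by edgeR's test, beside 1.25% of all genes higher and 2.64% lower. Of the 8, 1 had an unadjusted p below 0.05 and DESeq2 called 0, and the shares of all genes for these were not counted. The log2 fold changes lay between -0.19 ± 0.115 (*DFFB*) and 0.14 ± 0.0942 (*CASP8*). The 1 gene was *ACIN1*, at 326, 307 and 320.1 CPM in KO and at 293, 297 and 301 CPM in WT (0.10 ± 0.0392, adjusted p = 0.245).

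At D6, 2 of the 8 genes were higher in BAZ1B KO and none was lower, beside 6.87% and 5.97% of all genes. *CASP6* was at 30.6, 31.3 and 31.9 CPM in KO and at 25.2, 25.1 and 21.4 CPM in WT, 1.31-fold higher with no overlap (log2 fold change 0.39 ± 0.0628, adjusted p = 0.00139). *CASP10* was at 24.3, 29.8 and 29.9 CPM against 20.7, 24.5 and 22.8 CPM, with overlap (0.30 ± 0.084, adjusted p = 0.0311). The *CASP10* call was lost without WT D6 replicate 1 (adjusted p = 0.13) or 3 (0.0934), or KO D6 replicate 2 (0.108) or 3 (0.124), whereas that of *CASP6* held without any 1 of the 12 libraries (0.31 to 0.43). Values above 0 that missed the test were those of *CASP2* (0.13 ± 0.0446, adjusted p = 0.0799), *ACIN1* (0.12 ± 0.0393, adjusted p = 0.0632), *CASP9* (0.30 ± 0.113, adjusted p = 0.101) and *CASP8* (0.23 ± 0.0985, adjusted p = 0.153). *DFFA* (0.02 ± 0.0441) and *DFFB* (-0.05 ± 0.124) were near 0. Summed erythroid markers at D6 were 29324 to 34092 CPM in KO and 33398 to 37719 CPM in WT, which overlap. At D0 they were 7286 to 7783 CPM in KO and 6162 to 6886 CPM in WT, which do not. Their part in these differences was not tested.

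For BAZ1B KO, the same difference between the effects at D6 and D0 passed for 1 of the 8 genes, *CASP6* (0.45 ± 0.0872, adjusted p = 0.0189), beside 1.58% of all genes higher and 0.893% lower. Its call was lost without WT D0 replicate 1 (adjusted p = 0.0609), WT D0 replicate 2 (0.0632), KO D0 replicate 3 (0.0568) or KO D6 replicate 3 (0.0555), with values of 0.43 to 0.45. *CASP10* had 0.24 ± 0.119 (adjusted p = 0.351).

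The other genes of the pathway were taken as 8 lists with 38 genes, of which 34 passed the filter on low counts in each experiment. From D0 to D6 in BAZ1B WT, 16 of the 34 fell and 6 rose, beside 35.4% and 33.5% of all genes tested. Genes of the death receptor and adaptor list, with *CFLAR*, made up 7 of those that fell, of 8 tested (median log2 fold change -0.78). Among them were the TRAIL receptors *TNFRSF10A* (-2.11 ± 0.11, adjusted p = 2.8e-09) and *TNFRSF10B* (-1.90 ± 0.084, adjusted p = 7.59e-10), *FAS* (-1.33 ± 0.101, adjusted p = 9.11e-08) and *TNFRSF1A* (-1.21 ± 0.174, adjusted p = 4.12e-05). The apoptosome scaffold *APAF1* (-1.12 ± 0.0739, adjusted p = 2.4e-08) and the kinase *PRKCD* (-1.88 ± 0.101, adjusted p = 3.52e-09) fell as well. The direction was not uniform: *CRADD*, an adaptor of caspase-2, and *SAP18*, a partner of Acinus, rose. In BAZ1B KO, 14 of the 34 fell and 9 rose, beside 34.5% and 33.2% of all genes. Of the 8 genes of the death receptor and adaptor list, 6 were among those that fell. In H2A.X KO, 4 fell and 2 rose, beside 16.1% and 14.8%, *TNFRSF10A* (-2.05 ± 0.396, adjusted p = 0.00385) and *TNFRSF10B* (-1.81 ± 0.178, adjusted p = 0.000163) among the first, and in H2A.X WT, where 1.16% of all genes fell and 0.839% rose, the sole call was *TNFRSF10B* (-1.23 ± 0.221, adjusted p = 0.0312).

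Between genotypes, 9 of the 34 were higher and 9 lower in H2A.X KO at D0, beside 18.4% and 16.7% of all genes, and 9 and 8 at D6, beside 22.2% and 20.9%. The caspase inhibitors *BIRC6* (2.32 ± 0.461, adjusted p = 0.00807) and *XIAP* (1.33 ± 0.325, adjusted p = 0.0138), *APAF1* (1.66 ± 0.299, adjusted p = 0.0066), *FAS* (1.40 ± 0.343, adjusted p = 0.0138) and the kinase *STK4* (1.37 ± 0.269, adjusted p = 0.00792) were higher at D0, and the actin-severing protein *GSN* was lower (-1.68 ± 0.278, adjusted p = 0.00538). At D6 *FAS* (2.26 ± 0.383, adjusted p = 0.00392) was higher and the mitochondrial nuclease *ENDOG* lower (-1.65 ± 0.257, adjusted p = 0.00354). *CASP4*, a caspase of inflammation, had no read in either WT library at D6 and 0.541 to 1.81 CPM in KO. The KO mean of 1.01 CPM was 4.04-fold a floor of 0.25 CPM, set from 3 counts in each WT library. With each library corrected for length and GC content, the D0 values were 1.22 for *BIRC6* (adjusted p = 0.0149), 0.54 for *XIAP* (0.0888), 0.98 for *APAF1* (0.0209), 1.23 for *FAS* (0.0278), 0.78 for *STK4* (0.02) and -1.47 for *GSN* (0.00886). At D6 they were 1.84 for *FAS* (adjusted p = 0.0119) and -0.31 for *ENDOG* (0.19). For *BIRC6*, *APAF1*, *XIAP* and *STK4*, also called higher at D6 as fitted, they were 0.74 (0.0685), 0.74 (0.0547), 0.46 (0.139) and 0.57 (0.058). So *XIAP* lost its call at both days, and *ENDOG*, *BIRC6*, *APAF1* and *STK4* lost theirs at D6. *FAS* and *CASP4* (adjusted p = 0.0184) kept theirs at D6. In the 1 KO library at D6 without the word Redo, *BIRC6* was at 57, *XIAP* at 24.1, *APAF1* at 11 and *STK4* at 35.6 CPM. The marked KO libraries were at 135 to 188, 53 to 56.2, 17 to 21.4 and 51.8 to 52.2 CPM in that order. Each unmarked value lay between these and the WT libraries, and the part of the mark was not tested. *CFLAR*, of the death receptor list, went at D6 from 0.24 (adjusted p = 0.401) to -0.83 (0.0285), a change of sign and a call gained. In BAZ1B KO, 1 of the 34 was higher (*APAF1*, 0.30 ± 0.0704, adjusted p = 0.032) and 1 lower (*FAS*) at D0, beside 1.25% and 2.64% of all genes. At D6, 5 were higher and 4 lower, beside 6.87% and 5.97%, with *FAS* at -0.68 ± 0.108 (adjusted p = 0.00127) and *LMNA*, which encodes lamin A, at 0.31 ± 0.0437 (adjusted p = 0.000621).

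For each of the 8 genes, the 2 genes with the most similar pattern were taken from 8155 genes with a mean of at least 10 CPM in both experiments, by the lower of 2 Pearson correlations of log2 CPM, over the 10 H2A.X and over the 12 BAZ1B libraries. These correlations describe libraries that share their days and genotypes. *CASP8* was most like *DVL3* (r = 0.97 in both) and *NACC1* (0.96 in both), *CASP6* like *ABHD11* (0.96 in both) and *SLC10A4* (0.96 and 0.98), *DFFA* like *CPNE3* (0.97 in both) and *IFNGR1* (0.97 and 0.98), and *DFFB* like *ARHGDIA* (0.97 and 0.98) and *UBE2N* (0.95 and 0.97). *CASP2* was most like *CANX* (0.96 and 0.95) and *OSBPL11* (0.94 in both), and *ACIN1* like *TIMP3* (0.90 and 0.91) and *TRIM5* (0.95 and 0.90). The closest genes were less close for *CASP9*, *MBOAT1* (0.85 and 0.87) and *TRIB2* (0.85 and 0.86), and for *CASP10*, *NET1* (0.83 and 0.82) and *INTS2* (0.82 and 0.81).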

How the data were processed

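RNA-Seq counts of both experiments were used as deposited. Per the labels, the authors mapped reads with STAR 2.7.0f to hg38 and counted reads per gene with featureCounts of Subread 1.6.4, without normalization. The paper names a stranded kit and GENCODE annotation, the labels an unstranded kit, and which applies was not tested. Counts were filtered (filterByExpr, minimum count 10, minimum total 15), normalized by TMM and fitted with edgeR 4.0.16 in R 4.3.3, with 1 coefficient per genotype and day and each experiment fitted apart. Tests were two-sided quasi-likelihood F tests at a Benjamini-Hochberg adjusted p below 0.05 over all genes tested. SE were taken from the F statistic. Positions and lengths come from GENCODE, with 36434 of 59087 names matched by name and 759 by an older name. Length and GC content were corrected by splines with 5 degrees of freedom per library. Scripts were tested on simulated data. Replicates were numbered as in the labels. Same-numbered D0 and D6 libraries of each KO clone deviated together over 9473 and 9380 genes (r = 0.302 to 0.602 in H2A.X KO and 0.136 to 0.634 in BAZ1B KO), so these are paired. In WT, r was 0.483 for H2A.X and 0.00832 to 0.206 for BAZ1B. The main tests of D6 against D0 took no account of pairs, and a block was tried as an alternative. The pathway genes named are the 6 past the threshold with the largest absolute change in each comparison or fewer. *CRADD*, *SAP18*, *MCUB*, *CFLAR* and, at D6, *STK4* were named after their values were seen. A marker gene of the lists is not reported here. The 8 genes, the lists and the tests were chosen with earlier results of these data known.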

Additional observations from a re-analysis of the deposited data

Results flagged for a closer look

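The *CASP6* effect of BAZ1B KO differed between days, with a log2 difference of 0.45 (SE 0.0872) between the effect at D6 and that at D0 and an adjusted p of 0.0189 by edgeR's interaction test. KO was 0.07 lower than WT at D0 on the log2 scale (-0.07 ± 0.0605) and 0.39 ± 0.0628 higher at D6. The call for the difference was lost without WT D0 replicate 1 (adjusted p = 0.0609) or 2 (0.0632), KO D0 replicate 3 (0.0568) or KO D6 replicate 3 (0.0555). Of all genes, 1.58% were called higher and 0.893% lower by the same test.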

How the results depend on the processing

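All counts here are of the 8 genes called, in either direction. The shares of all genes called under these alternatives, the replicate block included, were not counted, so these counts describe the 8 genes only. Where the main analysis called 2 (H2A.X KO against WT at D0), 1 was called without a filter on low counts, 1 with length and GC offsets, 3 by DESeq2, 5 on the libraries of D0 alone and 0 to 3 with 1 library left out. Where it called 4 (the same at D6), 5 were called by DESeq2, 2 were called with upper-quartile normalization, 1 with the offsets, 1 on the libraries of D6 alone, 0 on the D6 libraries without the word Redo and 1 to 4 with 1 library left out. For D6 against D0 in H2A.X WT (0 called), DESeq2 called 1, no filter 2 and leaving out 1 library 0 or 1, and in H2A.X KO (3 called) DESeq2 called 5 and leaving out 1 library 2 to 4. For BAZ1B KO against WT at D6 (2 called), 3 were called by DESeq2, 1 on the libraries of D6 alone and 1 to 4 with 1 library left out. For D6 against D0 in BAZ1B, 6 or 7 were called in either genotype with 1 library left out, and for the difference of the BAZ1B effects 0 or 1. At an adjusted p below 0.001 with an absolute log2 fold change above 1.5, 0 were called everywhere except 1 for D6 against D0 in H2A.X KO. The cause of these shifts was not tested, apart from the smaller number of libraries where some were left out.

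With a replicate block, 2 genes were called in H2A.X KO against WT at D0 and 4 at D6, 0 and 2 in BAZ1B, 1 for D6 against D0 in H2A.X WT (*DFFB*, -0.98, adjusted p = 0.0342), 4 in H2A.X KO, 7 in BAZ1B WT, 6 in BAZ1B KO, and 0 and 1 for the differences of effects. At D6 in H2A.X, *CASP10* lost its call under the block (0.61, adjusted p = 0.0848) and *CASP6* gained one (-0.83, adjusted p = 0.0396), with 76 of 80 results unchanged in call and direction. Same-numbered KO and WT libraries of a day share only a number (r = -0.0723 to 0.215). With block and offsets together, 1 was called in H2A.X KO against WT at D0, 2 at D6 and 1 for D6 against D0 in H2A.X WT, and 2 values reversed at D6, *CASP10* to -0.07 (adjusted p = 0.82) and *DFFA* to -0.51 (adjusted p = 0.0348). Leaving out globin genes changed no call. Of 1480 single-gene values over all alternatives, 1393 kept direction and call. The H2A.X experiment has 2 WT libraries a day and fewer counts per library, and the biological coefficient of variation was 0.239 there against 0.0865 in the BAZ1B experiment.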

Other observations

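*LMNA*, which encodes lamin A, a substrate of caspase-6, had a BAZ1B KO effect that differed between days by edgeR's test (difference 0.32 ± 0.0616, adjusted p = 0.0185). It was the sole such gene of the 34 tested in the pathway lists, beside 1.58% of all genes higher and 0.893% lower. A link to the difference of *CASP6* was not tested, and whether single libraries decide the *LMNA* call was not examined. *LMNA* was at 598 to 629.6 CPM in WT and 591 to 628 CPM in KO at D0, which overlap, and at 444 to 484 CPM in WT and 546 to 585 CPM in KO at D6, which do not.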
